A study of Arabidopsis thaliana with 12 samples.

Results

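The EPF and EPFL genes of *Arabidopsis thaliana* encode small secreted peptides rich in cysteine. The 9 members described here are *EPF1*, *EPF2*, *EPFL9* and *EPFL1* to *EPFL6*, chosen by locus identifier with earlier results of these data known. Of these, 8 had an entry among the 23071 genes of the count table, and all 8 passed the filter on low counts. *EPFL3* is not analysed here. Beside them, *EPFL7* is given as another gene of the family.

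RNA was sequenced from whole seedlings at 2 days post-germination, with 50 seedlings pooled per library and 3 libraries per line. Every line was homozygous for *mute-3*, a loss-of-function allele of the bHLH gene *MUTE*, and carried a *MUTE* transgene under the *MUTE* promoter. MUTEv5#2 and MUTEv5#5 are lines 2 and 5 of the R10W protein; the submitters describe moderately clustered stomata in MUTEv5#2 and a severe phenotype with arrested lineages in MUTEv5#5. MUTEPPP#3 is line 3 of a protein with the changes H3P, E7P and R11P, and MUTE is line 1 of the wild-type protein, with residues numbered as the submitters number them. MUTEPPP and MUTE are represented by a single line each, so allele and line cannot be told apart in any comparison with them. All seedlings grew on 1% sucrose at 21 °C under 16 h of light and 8 h of dark.

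EPF and EPFL peptides bind receptor kinases of the ERECTA family, which act with the receptor-like protein TMM and with SERK co-receptors through a MAP kinase cascade that lowers the stability of the bHLH factor SPCH. EPF2, made early in the stomatal lineage, limits entry into the lineage, and EPF1, made later, enforces spacing between stomata and restrains guard mother cell formation. EPFL9 (STOMAGEN), made in the mesophyll, binds the same receptors without activating them and so favours stomata.

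The libraries held 117868477 to 152600239 counts, and 1 count equals at most 0.00848 per 1e6 of the unscaled library total. CPM stands for counts per 1e6 of the library total, here scaled by TMM. Replicates of a line correlated at a Pearson r of 0.978 to 0.996 across genes and libraries of different lines at 0.956 to 0.992. MUTE replicate 1 was closer to MUTEv5#5 replicate 1 (0.990) than to MUTE replicates 2 and 3 (0.982 and 0.978). *MUTE* itself, for which reads of the transgene and of the *mute-3* locus were counted as 1 gene, had 8.26 to 12.9 CPM in MUTEv5#2, 14.4 to 24.5 in MUTEv5#5, 5.32 to 6.93 in MUTEPPP#3 and 4.85 to 6.10 in MUTE. The clock index, the mean log2 CPM of 5 morning genes less that of 5 evening genes, was 0.34 to 1.61 in MUTEv5#2, 0.41 to 3.15 in MUTEv5#5, -4.11 to -0.050 in MUTEPPP#3 and 0.79 to 3.57 in MUTE. MUTEPPP#3 overlapped no other line in it. In comparisons with MUTEPPP#3, a fit with the index as a covariate can thus hardly separate it from the line. Organelle and ribosomal RNA took 1.10 to 2.92% of counts in MUTEv5#2, 1.11 to 1.53% in MUTEv5#5, 0.575 to 2.12% in MUTEPPP#3 and 0.397 to 1.28% in MUTE. Of 5 morning and 5 evening genes, 2 morning genes fell and 3 evening genes rose in MUTEPPP#3 over MUTE, and 0 were called in either MUTEv5 line by edgeR or DESeq2, where 0 had an unadjusted p under 0.05. Over all genes, edgeR called 10.7% higher and 13.9% lower in MUTEPPP#3. In MUTEv5#2 and MUTEv5#5, 22.8% and 16.2% of all genes had an unadjusted p under 0.05, and DESeq2 called 11.9% and 5.41%. Root markers summed to 93.61 to 106.7 CPM in MUTEv5#2, 97.07 to 111.8 in MUTEv5#5, 83.99 to 91.9 in MUTEPPP#3 and 98.59 to 104.2 in MUTE. Of 7, 1 rose in MUTEv5#2 and 1 fell in MUTEPPP#3. With 1.48% of all genes higher in MUTEv5#2 and 13.9% lower in MUTEPPP#3, the MUTEPPP#3 count is near the background.

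The 250 bases upstream of *EPF2*, *EPF1* and *EPFL9* are shown because these genes moved most or act most directly on stomata, and because MUTE and its partners are bHLH proteins, a class that binds E-boxes (CANNTG). They were read from the TAIR10.1 assembly in the direction of each gene and end at the base before the RefSeq gene start; capitals mark E-boxes, a motif that reads as an E-box on both strands.
EPF2 (chr1:12472618-12472867, plus strand): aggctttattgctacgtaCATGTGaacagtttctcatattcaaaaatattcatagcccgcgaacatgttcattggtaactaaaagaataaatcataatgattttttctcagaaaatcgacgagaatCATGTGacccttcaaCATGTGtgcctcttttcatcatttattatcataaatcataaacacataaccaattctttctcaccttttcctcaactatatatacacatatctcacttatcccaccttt
EPF1 (chr2:8983815-8984064, minus strand): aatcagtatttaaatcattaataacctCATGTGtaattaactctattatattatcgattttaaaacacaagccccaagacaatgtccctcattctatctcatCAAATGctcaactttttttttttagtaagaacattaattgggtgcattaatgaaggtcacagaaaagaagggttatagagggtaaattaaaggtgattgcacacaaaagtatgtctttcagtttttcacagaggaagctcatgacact
EPFL9 (chr4:7587100-7587349, minus strand): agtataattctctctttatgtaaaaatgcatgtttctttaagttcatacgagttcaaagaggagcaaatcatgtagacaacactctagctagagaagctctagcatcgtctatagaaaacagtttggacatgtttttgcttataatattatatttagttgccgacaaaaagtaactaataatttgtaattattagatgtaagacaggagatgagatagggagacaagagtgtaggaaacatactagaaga
The *EPF2* window held 3 E-boxes, all with the letters CATGTG, and the *EPF1* window held 2, one of them CATGTG. *EPFL9* held 0 in this window. Among 27437 protein-coding windows of the same length, 55.3% held at least 1 E-box, with a median of 1 and a 95th percentile of 3. Of the other members, *EPFL4* and *EPFL6* held 1 each and *EPFL1*, *EPFL2*, *EPFL3* and *EPFL5* held 0. Beside the members, *EPFL7* held 0, and it was called higher than in MUTE in both MUTEv5 lines, as *EPF2* was. *EPFL8*, a gene of the family whose level is not analysed here, held 2. The G-box CACGTG, present in 6.49% of windows, was in none of the family's windows, and the evening element AAAATATCT, present in 2.36%, was in that of *EPFL4*. A match is a description of letters and not a binding site.

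*EPF2* was higher in all 3 variant lines than in MUTE, by 3.76-fold in MUTEv5#2, 3.76-fold in MUTEv5#5 and 1.72-fold in MUTEPPP#3. The MUTEPPP#3 call was less stable and held in 12 of 21 alternative settings. *EPFL9* was lower in MUTEv5#2 and MUTEPPP#3, at 0.440 and 0.425 of its level in MUTE. In MUTEv5#5 it was at 0.713, below MUTE without overlap but not called. In MUTEv5#2, *EPFL1* was lower too. In bulk seedlings, fewer cells of a type and less RNA per cell cannot be told apart.

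Against these calls stand those over all 22636 genes tested, at an adjusted p under 0.05 by edgeR's quasi-likelihood test. In MUTEv5#2 over MUTE, 1 of 8 members rose and 2 fell, with 5.04% of all genes called (1.48% higher and 3.55% lower). In MUTEv5#5 over MUTE, 1 of 8 rose and 0 fell, with 1.04% of all genes called (0.314% higher and 0.725% lower). In MUTEPPP#3 over MUTE, 1 of 8 rose and 1 fell, with 24.6% of all genes called (10.7% higher and 13.9% lower), so that the members' count is near the background there. The median log2 fold change of the members was -0.49 in MUTEv5#2, -0.22 in MUTEv5#5 and -0.12 in MUTEPPP#3, against -0.00038, -0.0059 and -0.0013 over all genes. Groups did not overlap for 3 of 8 members in MUTEv5#2 (30.3% of all genes), 2 of 8 in MUTEv5#5 (20.6%) and 4 of 8 in MUTEPPP#3 (40.7%).

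**Figure D1:**
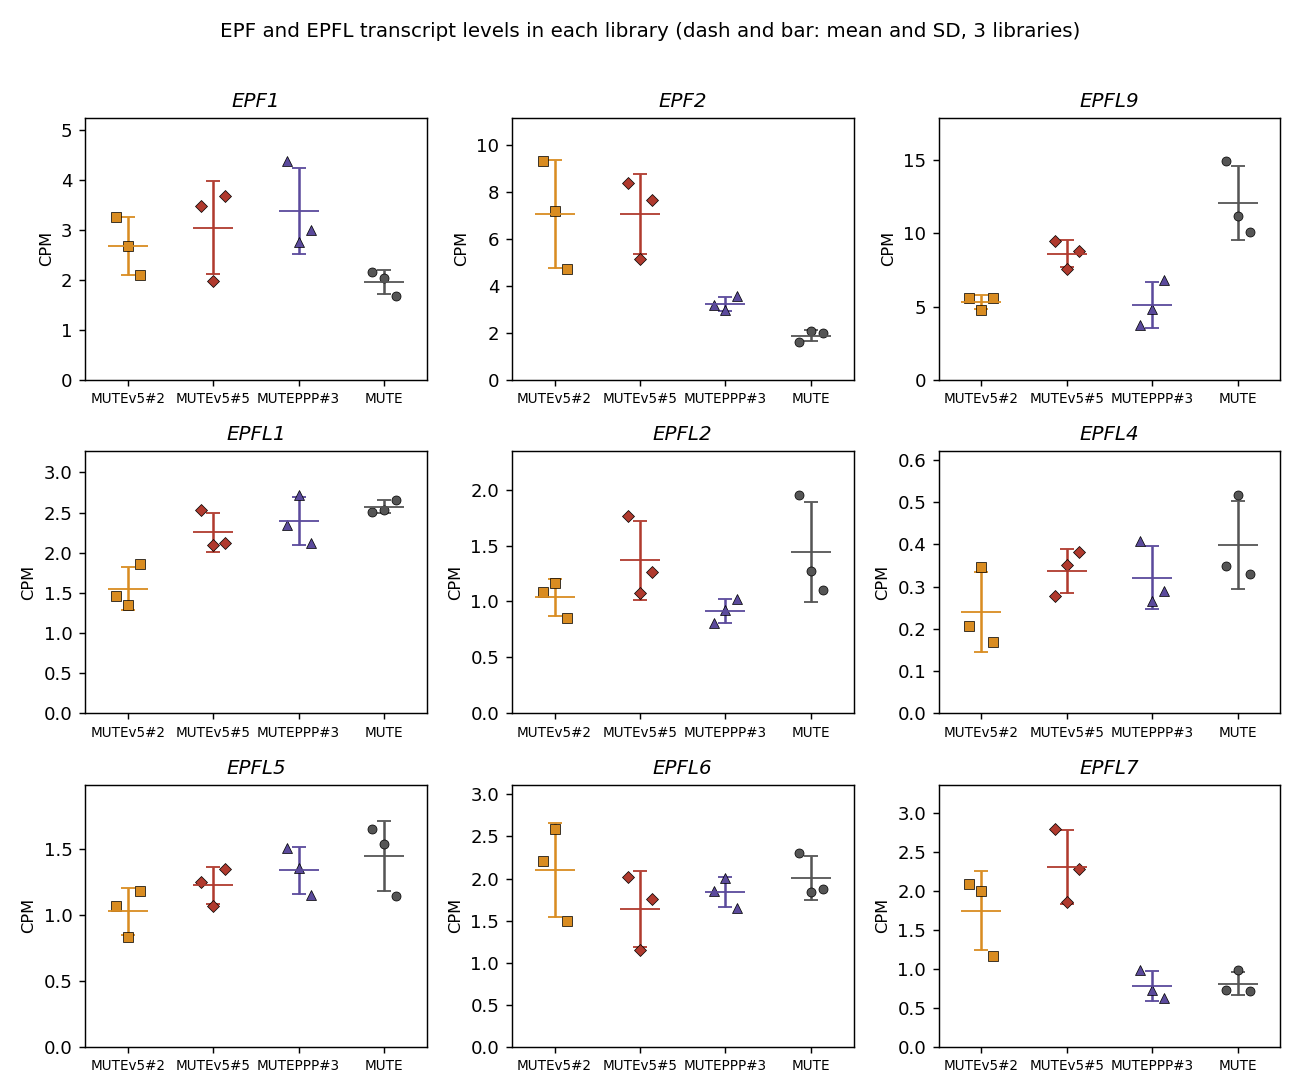
Level of each EPF and EPFL gene in each of 12 libraries, as CPM on a linear axis that starts at 0 and differs between panels; points are libraries, and the dash and bar are the mean and SD of 3. All 9 variant libraries lie above all 3 MUTE libraries for *EPF2* and below them for *EPFL9*.

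*EPF2* (AT1G34245, chromosome 1, 12472868 to 12473974, plus strand; 120 residues) encodes the early inhibitor. It had 9.29, 7.16 and 4.72 CPM in MUTEv5#2, 8.38, 5.14 and 7.65 in MUTEv5#5, 3.16, 2.98 and 3.56 in MUTEPPP#3, and 1.61, 2.06 and 1.97 in MUTE. The lowest variant library stood above the highest MUTE library, and both MUTEv5 lines stood above MUTEPPP#3 without overlap. The log2 fold change over MUTE was 1.91 in MUTEv5#2 (SE 0.252, adjusted p = 0.00600) and 1.91 in MUTEv5#5 (SE 0.252, adjusted p = 0.00626), and both were called in all 21 alternatives. In MUTEPPP#3 it was 0.78 (SE 0.247, 95% interval 0.24 to 1.33, adjusted p = 0.0406), and this call was less stable. With the clock index as a covariate, which is largely confounded with line here, the value was 0.98 and was not called. Its adjusted p of 0.127 was the highest of 21 alternatives, whose lowest was 0.0104. *EPF2* in MUTEPPP#3 was also not called without MUTE replicate 1, 2 or 3 (0.71, 0.88 and 0.84), MUTEPPP#3 replicate 1, 2 or 3 (0.80, 0.84 and 0.71) or MUTEv5#2 replicate 2 (0.78).

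*EPF1* (AT2G20875, chromosome 2, 8982863 to 8983814, minus strand; 104 residues), the later inhibitor, did not pass the test in any line. It had 3.26, 2.68 and 2.09 CPM in MUTEv5#2, 3.48, 1.98 and 3.68 in MUTEv5#5, 4.37, 2.76 and 3.01 in MUTEPPP#3, and 2.16, 2.04 and 1.68 in MUTE. Only MUTEPPP#3 was free of overlap with MUTE. The log2 fold change was 0.45 in MUTEv5#2 (95% interval -0.14 to 1.04, adjusted p = 0.344), 0.64 in MUTEv5#5 (0.050 to 1.22, adjusted p = 0.269) and 0.79 in MUTEPPP#3 (0.20 to 1.37, adjusted p = 0.0522). The MUTEPPP#3 value lies just past the threshold, and DESeq2 (0.79, adjusted p = 0.0174) and 5 of the other alternatives called it. With the clock index as a covariate, which is largely confounded with line here, it was 1.52 (adjusted p = 0.0123, range over the alternatives 0.0123 to 0.168). *EPF1* and *EPF2*, measured as CPM per kb of exon, stood at about the same level in MUTE (2.26 ± 0.284 and 2.27 ± 0.290, SD, n = 3) and in MUTEPPP#3 (3.90 ± 1.00 and 3.90 ± 0.359). In MUTEv5#2 they were 3.09 ± 0.676 and 8.52 ± 2.76, and in MUTEv5#5 3.52 ± 1.07 and 8.52 ± 2.06, without overlap in either line.

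*EPFL9* (AT4G12970, chromosome 4, 7585869 to 7587099, minus strand; 102 residues), the promoter of stomata, was the member with the highest level per kb in MUTE. It had 5.60, 4.75 and 5.59 CPM in MUTEv5#2, 9.46, 7.60 and 8.78 in MUTEv5#5, 3.75, 4.81 and 6.85 in MUTEPPP#3, and 14.9, 11.2 and 10.1 in MUTE. Every variant library was below every MUTE library, and every MUTEv5#5 library was above every library of the other variant lines. The log2 fold change over MUTE was -1.23 in MUTEPPP#3 (SE 0.214, adjusted p = 0.00337), called in all 21 alternatives, among them the clock index as a covariate (-1.36, adjusted p = 0.0426, the highest of the 21, whose lowest was 1.77e-06), and -1.19 in MUTEv5#2 (SE 0.214, adjusted p = 0.0197). In MUTEv5#5 it was -0.49 (95% interval -0.95 to -0.023, adjusted p = 0.286) and was called in none of them.

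The MUTEv5#2 call on *EPFL9* was lost without MUTE replicate 1 (-0.998) or 2 (-1.24), without MUTEv5#2 replicate 1 (-1.22) or 2 (-1.11), and with the organelle and ribosomal RNA share as a covariate (-1.16, adjusted p = 0.0908; range over the alternatives 2.3e-05 to 0.108). Since *EPFL9* is a mesophyll gene, mesophyll and photosynthesis markers were set beside it. All 8 had a log2 fold change below 0 in each variant line, with medians of -0.38 in MUTEv5#2, -0.22 in MUTEv5#5 and -0.35 in MUTEPPP#3. Only *LHCB2.1* in MUTEPPP#3 (-0.73) passed the edgeR test, while 4 in MUTEv5#2, 1 in MUTEv5#5 and 5 in MUTEPPP#3 had an unadjusted p under 0.05, and DESeq2 called 4, 0 and 4 of the 8 in these lines. Over all genes, 22.8%, 16.2% and 38.4% had an unadjusted p under 0.05 in MUTEv5#2, MUTEv5#5 and MUTEPPP#3, and DESeq2 called 11.9%, 5.41% and 30.7%. Their summed level was 42920 to 51230 CPM in MUTEv5#2, 45330 to 54400 in MUTEv5#5, 44620 to 49780 in MUTEPPP#3 and 52800 to 61850 in MUTE, and none was at 0 in all libraries. MUTEv5#2 and MUTEPPP#3 lay below MUTE without overlap in this sum, and MUTEv5#5 overlapped MUTE. Their part in the *EPFL9* result was not tested. Guard cell markers summed to 509.1 to 578.3 CPM in MUTEv5#2, 353.3 to 519.2 in MUTEv5#5, 993.8 to 1133 in MUTEPPP#3 and 1179 to 1360 in MUTE. Most of this sum was 1 gene, *TGG1*, with means of 488, 413.6, 977.5 and 1205 CPM in the same order of lines. The sum thus mainly describes *TGG1*. Of 7 guard cell markers, 5 fell in each MUTEv5 line, and 1 rose and 1 fell in MUTEPPP#3. Over all genes, 3.55% fell in MUTEv5#2, 0.725% fell in MUTEv5#5, and 10.7% rose and 13.9% fell in MUTEPPP#3, so that the MUTEPPP#3 count is near the background. None of 5 epidermis markers was called in any variant line over MUTE, with medians of -0.030 in both MUTEv5 lines and -0.017 in MUTEPPP#3; DESeq2 called 0 of them in each line, and 1 in MUTEPPP#3 had an unadjusted p under 0.05.

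**Figure D2:**
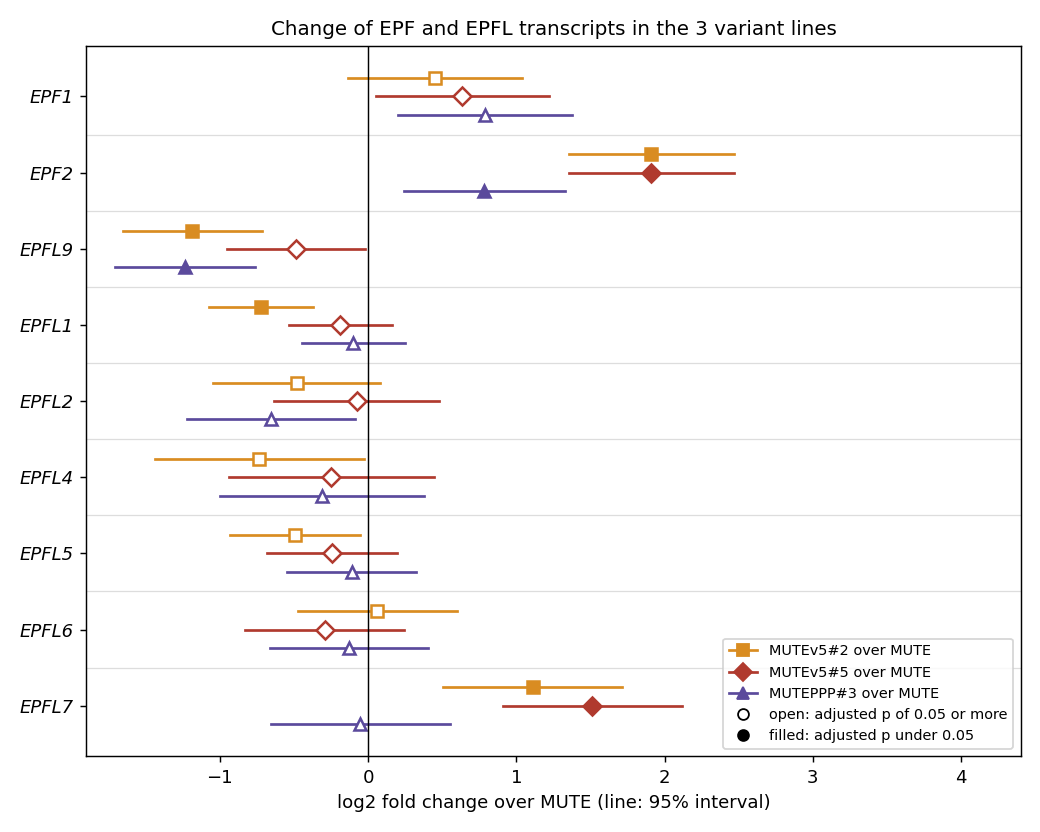
Log2 fold change of each EPF and EPFL gene over MUTE in MUTEv5#2, MUTEv5#5 and MUTEPPP#3, with 95% intervals from edgeR; filled symbols have an adjusted p under 0.05. *EPF2* is at 1.91, 1.91 and 0.78, and *EPFL9* at -1.19, -0.49 and -1.23.

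Because EPF2 and EPFL9 compete for the same receptors, the ratio of their transcript levels was computed per kb of exon in each library, as a description with no test. It was 1.97, 1.80 and 1.00 in MUTEv5#2, 1.06, 0.803 and 1.04 in MUTEv5#5, 1.00, 0.737 and 0.618 in MUTEPPP#3, and 0.128, 0.219 and 0.232 in MUTE. The inhibitor's transcript was thus well below that of the antagonist in all MUTE libraries and at a comparable or higher level in most variant libraries. The means were 1.59 ± 0.516, 0.965 ± 0.140, 0.786 ± 0.197 and 0.193 ± 0.0566 (SD, n = 3), in the same order of lines. The log2 fold changes of *EPF2* and *EPFL9* over MUTE were 1.91 and -1.19 in MUTEv5#2, 1.91 and -0.49 in MUTEv5#5, and 0.78 and -1.23 in MUTEPPP#3. In MUTEv5#5 only *EPF2* was called, though every *EPFL9* library was below every MUTE library. Both genes were called in the other variant lines. Of 21 alternatives, the *EPFL9* call in MUTEv5#2 held in 16 and the *EPF2* call in MUTEPPP#3 in 12. The ratio of *EPF1* to *EPFL9* was 0.577 ± 0.131 in MUTEv5#2, 0.397 ± 0.0925 in MUTEv5#5, 0.826 ± 0.440 in MUTEPPP#3 and 0.187 ± 0.0215 in MUTE.

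**Figure D3:**
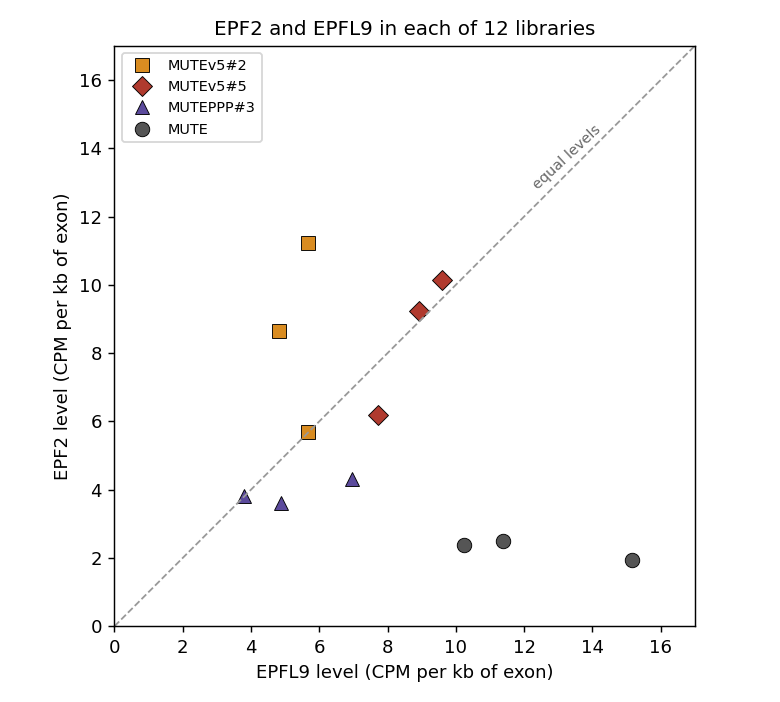
*EPF2* level against *EPFL9* level in each of 12 libraries, both as CPM per kb of exon, with a dashed line of equal levels. The 3 MUTE libraries lie far below the line at high *EPFL9*, and their EPF2 to EPFL9 ratios of 0.128 to 0.232 are below those of all variant libraries (0.618 to 1.97).

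*EPFL1*, *EPFL2*, *EPFL4*, *EPFL5* and *EPFL6* are known as ligands of ERECTA family receptors in growth, among them stem elongation (*EPFL4* and *EPFL6*), leaf margin teeth (*EPFL2*) and the size of the shoot apical meristem. *EPFL1* (AT5G10310, chromosome 5, 3241439 to 3242380, minus strand) was the one of these 5 that passed the test, in MUTEv5#2. It had 1.46, 1.34 and 1.85 CPM in MUTEv5#2, 2.53, 2.101 and 2.12 in MUTEv5#5, 2.35, 2.72 and 2.12 in MUTEPPP#3, and 2.51, 2.53 and 2.66 in MUTE. MUTEv5#2 was below all other lines without overlap, and the other lines overlapped each other. The log2 fold change of MUTEv5#2 over MUTE was -0.72 (SE 0.159, adjusted p = 0.0321). The call was lost without MUTE replicate 1, 2 or 3 (-0.74, -0.74 and -0.70), without MUTEv5#2 replicate 1 or 2 (-0.68 and -0.63), with MUTEv5#2 and MUTE alone in the fit (-0.72, adjusted p = 0.0813) and with the organelle and ribosomal RNA share as a covariate (-0.66, adjusted p = 0.151; range over the alternatives 7.7e-04 to 0.151). In MUTEv5#5 and MUTEPPP#3 the values were -0.19 (adjusted p = 0.607) and -0.10 (adjusted p = 0.678).

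*EPFL2* (AT4G37810) had 1.09, 1.17 and 0.854 CPM in MUTEv5#2, 1.77, 1.08 and 1.26 in MUTEv5#5, 0.807, 0.923 and 1.02 in MUTEPPP#3, and 1.95, 1.27 and 1.11 in MUTE. MUTEPPP#3 lay just below MUTE without overlap, and its log2 fold change of -0.65 (95% interval -1.22 to -0.091) did not pass the test (adjusted p = 0.0844). *EPFL5* (AT3G22820) ranged from 0.834 to 1.18 CPM in MUTEv5#2, 1.07 to 1.35 in MUTEv5#5, 1.15 to 1.51 in MUTEPPP#3 and 1.14 to 1.65 in MUTE, and *EPFL6* (AT2G30370) from 1.49 to 2.59, 1.15 to 2.02, 1.65 to 2.01 and 1.84 to 2.31 CPM in the same lines. For *EPFL5* and *EPFL6* the lines overlapped throughout. *EPFL4* (AT4G14723) was the lowest member, at 0.168 to 0.347 CPM in MUTEv5#2, 0.278 to 0.381 in MUTEv5#5, 0.267 to 0.407 in MUTEPPP#3 and 0.329 to 0.517 in MUTE. These are 24 to 72 counts per library, and the 95% interval of its change in MUTEv5#2 was wide (-1.44 to -0.028, adjusted p = 0.201). For *EPFL2*, *EPFL4*, *EPFL5* and *EPFL6*, no comparison of variant and MUTE lines gave an adjusted p under 0.05 in any of 21 alternatives.

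*EPFL7* (AT1G71866, chromosome 1, 27030427 to 27031461, minus strand) is a relative outside the 9 members. It had 2.09, 2.00 and 1.16 CPM in MUTEv5#2, 2.81, 1.86 and 2.28 in MUTEv5#5, 0.992, 0.728 and 0.624 in MUTEPPP#3, and 0.726, 0.983 and 0.723 in MUTE. Both MUTEv5 lines stood above MUTE and MUTEPPP#3, which overlapped each other. The log2 fold change over MUTE was 1.11 in MUTEv5#2 (SE 0.274, adjusted p = 0.0448) and 1.51 in MUTEv5#5 (SE 0.275, adjusted p = 0.0341), against -0.053 in MUTEPPP#3 (adjusted p = 0.908). The MUTEv5 calls are close to the threshold. The MUTEv5#2 call was lost without any 1 MUTE library (1.04, 1.27 and 1.03 for replicates 1 to 3), without MUTEv5#2 replicate 1 or 2 (0.96 and 1.00), MUTEv5#5 replicate 3 (1.11) or MUTEPPP#3 replicate 2 (1.11). The MUTEv5#5 call was lost without any 1 MUTE library (1.44, 1.67 and 1.43), without MUTEv5#2 replicate 1 or 2 (1.51 each), MUTEv5#5 replicate 1 or 3 (1.35 and 1.52) or MUTEPPP#3 replicate 2 (1.51). With the compared lines alone in the fit the values were 1.11 in MUTEv5#2 and 1.52 in MUTEv5#5, and with the organelle share as a covariate 1.08 and 1.49, and none of these was called. The adjusted p over the 21 alternatives ran from 0.00279 to 0.167 in MUTEv5#2 and from 2.3e-05 to 0.117 in MUTEv5#5. *EPFL7* overlaps AT1G71865 on the other strand, and the strand setting of the counting is not given in the sources used here, so reads of the pair may be joined. AT1G71865 changed by 0.32, 0.31 and 0.35 in the 3 variant lines over MUTE, with adjusted p of 0.225, 0.328 and 0.101.

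The order of levels per kb differed between lines. In MUTE, *EPFL9* stood first at 12.3 ± 2.57 CPM per kb, above *EPFL1* (2.96 ± 0.0935), *EPFL5* (2.28 ± 0.421), *EPF2* and *EPF1*, and these 4 lay close together. In MUTEv5#2, *EPF2* stood first (8.52 ± 2.76) and *EPFL9* second (5.39 ± 0.497). The highest *EPFL9* library was only just below the lowest *EPF2* library, at 5.685 against 5.696 CPM per kb. In MUTEv5#5, *EPFL9* (8.74 ± 0.952) and *EPF2* (8.52 ± 2.06) did not differ beyond their spread. In MUTEPPP#3, *EPFL9* (5.22 ± 1.60), *EPF2* (3.90 ± 0.359) and *EPF1* (3.90 ± 1.00) overlapped: the *EPFL9* libraries ran from 3.81 to 6.95 CPM per kb, those of *EPF2* from 3.60 to 4.30 and those of *EPF1* from 3.19 to 5.05. *EPFL4* was last in every line, at 0.298 to 0.494 CPM per kb. The summed level of the 8 members overlapped between lines, at 17.95 to 24.18 CPM in MUTEv5#2, 20.46 to 29.16 in MUTEv5#5, 17.83 to 19.65 in MUTEPPP#3 and 20.86 to 27.47 in MUTE, except that all MUTEPPP#3 libraries were below all MUTE and MUTEv5#5 libraries.

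The variant lines were then compared with each other, to set the same allele in 2 lines side by side and to set the alleles against each other. Between MUTEv5#5 and MUTEv5#2, 0 of 8 members were called, with 0.0663% of all genes called (0.0177% higher and 0.0486% lower, 15 genes in all); DESeq2 also called 0 (1.35% of all genes), and 2 members had an unadjusted p under 0.05 (10.8% of all genes). These were *EPFL9* (0.70, 95% interval 0.23 to 1.17, adjusted p = 0.299) and *EPFL1* (0.54, 0.19 to 0.89, adjusted p = 0.282), both higher in every MUTEv5#5 library. Groups did not overlap for 2 of 8 members here, against 18.2% of all genes. *EPF2* differed by 0.00043 on the log2 scale, with a 95% interval of -0.53 to 0.53, so a difference of up to about that size is within the error. In MUTEPPP#3 over MUTEv5#2, 0 of 8 members rose and 1 fell, with 2.47% of all genes called (1.06% higher and 1.4% lower). It was *EPF2* (-1.13, SE 0.245, 95% interval -1.67 to -0.59, adjusted p = 0.0418), which was called in 9 of 21 alternatives. That call was lost without MUTE replicate 2 or 3 (-1.11 each), MUTEv5#2 replicate 1 or 2 (-0.88 and -1.11), MUTEv5#5 replicate 1 or 3 (-1.13 and -1.11) or MUTEPPP#3 replicate 2 or 3 (-1.07 and -1.20). It was also lost under library totals (-1.10), with the compared lines alone (-1.11), and with the organelle share (-1.23) or the clock index (-0.95, adjusted p = 0.244, the highest of the 21, whose lowest was 6.59e-04) as a covariate. *EPFL9* differed by -0.049 there (adjusted p = 0.921), with a 95% interval of -0.52 to 0.42. *EPFL1* was higher in every MUTEPPP#3 library than in every MUTEv5#2 library (0.62, adjusted p = 0.0649), and *EPFL7* lower in every one (-1.16, adjusted p = 0.0532), but neither passed the test. DESeq2 called both, with adjusted p of 0.00544 and 0.00218, the lowest of the 21 alternatives; the highest were 0.230 and 0.329. Groups did not overlap for 2 of the 8 members, against 27.2% of all genes.

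In MUTEPPP#3 over MUTEv5#5, 0 of 8 members rose and 2 fell, with 15.7% of all genes called (6.32% higher and 9.38% lower). *EPF2* was lower by -1.13 (adjusted p = 0.0140), a call lost without MUTEv5#5 replicate 3 (-1.04) or MUTEPPP#3 replicate 2 (-1.07) and with the clock index as a covariate (-0.91, adjusted p = 0.269; range over the alternatives 2.15e-04 to 0.269). *EPFL9* was lower by -0.75 (95% interval -1.21 to -0.28, adjusted p = 0.0390), called in 9 of 21 alternatives. It was not called without MUTE replicate 2 (-0.72), MUTEv5#2 replicate 1 or 2 (-0.75 each), MUTEv5#5 replicate 1, 2 or 3 (-0.67, -0.80 and -0.71), or MUTEPPP#3 replicate 1 or 2 (-0.56 and -0.70), nor under library totals (-0.66), with the compared lines alone (-0.73), or with the organelle share (-0.75) or the clock index (-0.87, adjusted p = 0.229, the highest of the 21, whose lowest was 0.00919) as a covariate. *EPFL7* was lower by -1.57 (adjusted p = 0.00602), called in 20 of 21 alternatives and not with the clock index as a covariate (-0.999, adjusted p = 0.191; lowest over the alternatives 2.12e-06). Groups did not overlap for 3 of 8 members, *EPF2*, *EPFL9* and *EPFL2*, against 33.3% of all genes. The comparisons with MUTE share the 3 MUTE libraries, so their values are given side by side and not as independent results.

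The proteins that receive and pass on the peptide signal were described from lists of 8 receptors and co-receptors, 2 secreted proteases, 8 MAP kinase cascade genes and inputs, and 5 bHLH factors. Of the receptors, 1 rose in MUTEv5#2, 2 rose in MUTEv5#5 and 3 fell in MUTEPPP#3, with medians of 0.086, -0.021 and -0.042; over all genes, 1.48% were called higher in MUTEv5#2, 0.314% higher in MUTEv5#5 and 13.9% lower in MUTEPPP#3. *TMM*, the receptor-like protein of the stomatal lineage, had 28.6 to 37.8 CPM in MUTEv5#2, 40.2 to 49.5 in MUTEv5#5, 16.8 to 18.8 in MUTEPPP#3 and 13.98 to 18.3 in MUTE. Both MUTEv5 lines stood above MUTE without overlap, by 1.14 (adjusted p = 0.00422) and 1.53 (adjusted p = 5.48e-04). *ERL1*, a receptor of the ERECTA family on which EPF1 acts, rose by 0.73 in MUTEv5#5 (adjusted p = 0.0410), was at 0.51 in MUTEv5#2 (adjusted p = 0.0598) and fell by 0.51 in MUTEPPP#3 (adjusted p = 0.0236). *ERL2* (-0.45, adjusted p = 0.00916) and the co-receptor gene *SERK2* (-0.50, adjusted p = 0.00500) also fell in MUTEPPP#3. The *TMM* and *SERK2* calls held in all 21 alternatives. The *ERL1* rise in MUTEv5#5 was lost without MUTE replicate 2 or 3, MUTEv5#2 replicate 2, any 1 MUTEv5#5 library or MUTEPPP#3 replicate 2 or 3, at 0.66 to 0.76, and its fall in MUTEPPP#3 without MUTE replicate 1 (-0.39) or 3 (-0.52) or MUTEPPP#3 replicate 2 or 3 (-0.51 each). The rise was also lost under library totals (0.81), with MUTEv5#5 and MUTE alone in the fit (0.73) and with the organelle share as a covariate (0.78). The fall was also lost under library totals (-0.35) and with the clock index as a covariate (-0.30, adjusted p = 0.388, the highest of 21 alternatives, whose lowest was 0.00764). *ERL2* was not called under library totals (-0.28), with MUTEPPP#3 and MUTE alone in the fit (-0.44) or with the clock index as a covariate (-0.36). *ER* itself had 65.6 ± 1.95 CPM in MUTEv5#2, 64.9 ± 4.56 in MUTEv5#5, 74.5 ± 12.5 in MUTEPPP#3 and 76.7 ± 8.50 in MUTE, and was not called.

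Among the proteases, *SDD1*, a subtilisin that limits stomatal number, fell in both MUTEv5 lines. It had 8.66, 9.97 and 11.3 CPM in MUTEv5#2, 5.27, 6.17 and 6.45 in MUTEv5#5, 15.1, 17.4 and 19.2 in MUTEPPP#3, and 17.2, 23.4 and 21.4 in MUTE. MUTEv5#5 was lowest, MUTEv5#2 next, and MUTEPPP#3 overlapped MUTE. The log2 fold change over MUTE was -1.05 in MUTEv5#2 (adjusted p = 0.00714) and -1.80 in MUTEv5#5 (adjusted p = 3.88e-04). *CRSP*, a protease that processes the EPF2 precursor, was at -0.063, 0.17 and -0.47 in the 3 lines and was not called. Over all genes, 5.04% were called in MUTEv5#2 and 1.04% in MUTEv5#5, and 13.9% fell in MUTEPPP#3. Of the 8 cascade genes, 0 were called in MUTEv5#2 and MUTEv5#5 and 1 fell in MUTEPPP#3, a count near the background. The 1 that fell was the gene of the brassinosteroid pathway kinase *BIN2* (-0.48, adjusted p = 0.0119 by edgeR). It was not called without MUTEPPP#3 replicate 2 (-0.44), nor with the clock index as a covariate (-0.39), library totals (-0.31) or the compared lines alone (-0.47). In each MUTEv5 line 2 cascade genes had an unadjusted p under 0.05, and DESeq2 called 0 in MUTEv5#2 and 1 in MUTEv5#5. Over all genes, 22.8% and 16.2% had an unadjusted p under 0.05 in MUTEv5#2 and MUTEv5#5, and DESeq2 called 11.9% and 5.41%.

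Of the 5 bHLH genes, 3 rose and 1 fell in each MUTEv5 line, and 2 fell in MUTEPPP#3. Over all genes, 1.48% rose and 3.55% fell in MUTEv5#2, 0.314% rose and 0.725% fell in MUTEv5#5, and 13.9% fell in MUTEPPP#3. *MUTE* is 1 of the 3 that rose. Its count joins reads of the transgene and of the *mute-3* locus, so transgene level and a response of the locus cannot be told apart. *SPCH*, which starts the lineage and on which the peptide signal acts, rose by 1.29 in MUTEv5#2 (adjusted p = 0.00446) and 1.63 in MUTEv5#5 (adjusted p = 8.03e-04). *MUTE* rose by 1.00 (adjusted p = 0.0315) and 1.81 (adjusted p = 0.00403) in these lines, and *SCRM*, whose product pairs with the other bHLH factors, by 0.30 (adjusted p = 0.0448) and 0.61 (adjusted p = 0.00355). *FAMA*, which acts at the last step of guard cell formation, fell by 0.74 (adjusted p = 0.0202) and 1.48 (adjusted p = 5.48e-04). In MUTEPPP#3, *SCRM* (-0.25, adjusted p = 0.0326) and *SCRM2* (-0.81, adjusted p = 0.0128) fell. The *SPCH* calls and the *FAMA* call in MUTEv5#5 held in all 21 alternatives. In MUTEv5#2, *MUTE* and *SCRM* were also not called with the compared lines alone (1.01 and 0.30). *MUTE* was not called there without any 1 MUTE library or MUTEv5#2 replicate 1 or 2 (0.84 to 1.12), *FAMA* without replicate 1 or 2 of MUTE or of MUTEv5#2 (-0.76 to -0.66), and *SCRM* without any 1 MUTE library, MUTEv5#2 replicate 1 or 2, or replicate 2 or 3 of MUTEv5#5 or MUTEPPP#3 (0.26 to 0.34). In MUTEPPP#3, *SCRM2* was not called without MUTEPPP#3 replicate 2 (-0.72). *SCRM* was not called there without MUTE replicate 1 or 3, MUTEv5#5 replicate 2 or 3 or any 1 MUTEPPP#3 library (-0.26 to -0.19), and neither under library totals (-0.080, adjusted p = 0.559, the highest of 21 alternatives, whose lowest was 0.012), with the clock index (-0.12) or the organelle share (-0.23) as a covariate, nor with the compared lines alone (-0.24). In MUTEv5#5 over MUTEv5#2, the values were 0.39 for *TMM*, -0.74 for *SDD1*, 0.34 for *SPCH*, 0.80 for *MUTE* and -0.74 for *FAMA*. Their adjusted p by edgeR was 0.357, 0.122, 0.461, 0.260 and 0.118, so that none of these genes passed the test between the MUTEv5 lines. DESeq2 called 3 of the 5 bHLH genes there and 1 of the 2 proteases, against 1.35% of all genes.

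**Figure D4:**
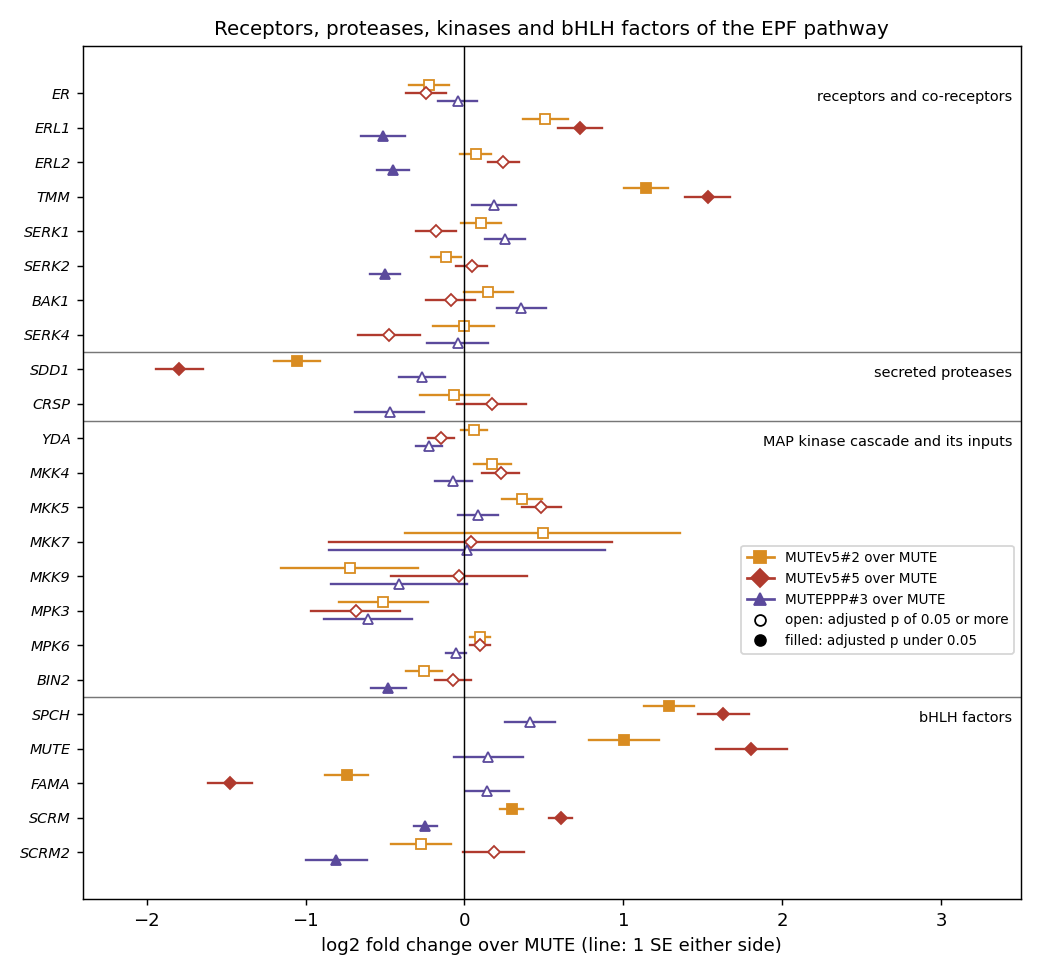
Log2 fold change over MUTE, with 1 SE either side, of the receptor, protease, kinase and bHLH genes of the pathway in MUTEv5#2, MUTEv5#5 and MUTEPPP#3; filled symbols have an adjusted p under 0.05 by edgeR. *TMM* and *SPCH* are above 1 and *SDD1* below -1 in both MUTEv5 lines and closer to 0 in MUTEPPP#3.

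Likeness across libraries is given as a description, since libraries that share a line are not independent points. Across the 12 libraries, the genes whose log2 CPM followed each member most closely were ranked among 19177 candidates averaging at least 1 CPM. For *EPF2* they were the formin gene *FH6* (Pearson r 0.941), AT1G56150 (0.935), AT4G39240 (0.927), *BASL* (0.925), which encodes a polarity protein of dividing stomatal lineage cells, and AT3G02740 (0.922). For *EPFL9* they were *MSRB6* (0.976), the B-box gene *BBX14* (0.973), AT5G21222 (0.966), *JAL33* (0.961) and AT2G38820 (0.959). For *EPF1* they were AT5G03850 (0.950), *TOM22-I* (0.938), AT3G07510 (0.936), AT3G02190 (0.935) and *RPS14* (0.929). Within the family, *EPF2* and *EPFL7* had an r of 0.878, *EPFL9* and *EPFL2* of 0.804, *EPF1* and *EPF2* of 0.522, and *EPF2* and *EPFL9* of -0.393.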

How the data were processed

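RNA-seq counts of 12 libraries (4 lines, 3 libraries each) were analysed. The authors deposited whole-number counts per gene and library, per the file headers. The submitters' processing notes name, for TAIR10, the aligners Bowtie2 2.3.4.1 and HISAT2 2.1.0, Trimmomatic 0.38, StringTie 2.1.3b, FastQC and DESeq2; per the labels, a TruSeq stranded mRNA kit was used. Not given in the sources used here are the tool that made the counts, its strand setting and how it took read pairs. No library held a value below 1, and 80 of 23098 entries stood at 1 in all libraries; values less 1 were an alternative. The 27 entries that name no gene (at most 0.000596% of counts) were left out.

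From these, edgeR 4.0.16 in R 4.3.3 (TMM, filterByExpr with 22636 genes tested and 435 left out, 1 quasi-likelihood fit of all 12 libraries) tested 6 comparisons with Benjamini-Hochberg adjustment over all genes and a threshold of 0.05. SE and 95% intervals are from that fit; ± is the SD over 3 libraries. The labels call the 3 libraries biological replicates. Same-numbered libraries of MUTEv5#5 and MUTE deviated together (r of 0.574, 0.414 and 0.323 across genes for numbers 1, 2 and 3). This is a pattern in the data and not in the labels, and the main fit held no block. In no other pair of lines were all 3 over 0.1. CPM per kb divides by the exon length of RefSeq on TAIR10.1, whose sequence records the file's identifiers name. The named genes are the members, *EPFL7*, called genes of the pathway lists and, per leading member, the 5 genes of highest r; *ER*, *CRSP* and genes given with values that missed the threshold were chosen after their values were seen. The members and lists were chosen with earlier results of these data known. The 21 alternatives were DESeq2 1.42.0, RLE scaling, library totals, no filter, the compared groups alone, a replicate block, values less 1, covariates for clock index and organelle share, and 12 fits without 1 library each.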

Additional observations from a re-analysis of the deposited data

Results flagged for a closer look

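The changes of 3 family genes over MUTE differed between variant lines, by the test of the difference itself in edgeR's quasi-likelihood fit. *EPF2* changed less in MUTEPPP#3 than in either MUTEv5 line, with a difference of -1.13 on the log2 scale from MUTEv5#2 (adjusted p = 0.0418) and -1.13 from MUTEv5#5 (adjusted p = 0.0140). *EPFL9* was lower in MUTEPPP#3 than in MUTEv5#5, with a difference of -0.746 (adjusted p = 0.0390). For *EPFL7* the difference of MUTEPPP#3 from MUTEv5#5 was -1.57 (adjusted p = 0.00602). Of 21 alternatives, the *EPF2* difference was called in 9 from MUTEv5#2 and in 18 from MUTEv5#5. That of *EPFL9* was called in 9 and that of *EPFL7* in 20. Fits without single libraries were among those that lost the *EPF2* and *EPFL9* calls. The clock index did not overlap between MUTEPPP#3 and the MUTEv5 lines, and with it as a covariate all 4 calls were lost, at -0.95 and -0.91 for *EPF2* against MUTEv5#2 and MUTEv5#5, -0.87 for *EPFL9* and -0.999 for *EPFL7*.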

How the results depend on the processing

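Over 54 results (*EPFL7* and 8 members in 6 comparisons) and 21 alternatives, 1015 values kept their direction and their side of the threshold, 68 lost a call, 12 gained one and 39 changed sign; every change of sign was of a value that had not been called. The alternatives that are not named below changed no sign. Under library totals as the only scaling, which moved the median of all genes by 0.126 in MUTEv5#2, 0.0841 in MUTEv5#5 and 0.167 in MUTEPPP#3 over MUTE, signs changed for *EPFL2* in MUTEv5#5 (0.012) and for *EPFL1* (0.066), *EPFL5* (0.051), *EPFL6* (0.037) and *EPFL7* (0.11) in MUTEPPP#3 over MUTE, for *EPFL4* in MUTEPPP#3 over MUTEv5#5 (0.020) and for *EPF2* in MUTEv5#5 over MUTEv5#2 (-0.049). That near-zero *EPF2* value also changed sign with DESeq2 (-0.0030), RLE scaling (-0.0031), the compared groups alone (-0.0052), the organelle share (-0.070) and the clock index (-0.043), and ran from -0.22 to 0.25 without single libraries. With the clock index, signs changed in MUTEPPP#3 over MUTE for *EPFL5* (0.20), *EPFL6* (0.47) and *EPFL7* (0.47), over MUTEv5#2 for *EPFL2* (0.20) and *EPFL6* (0.30), and over MUTEv5#5 for *EPFL4* (0.068). Leaving out single libraries gave ranges through 0 for *EPFL6* in MUTEv5#2 over MUTE (-0.12 to 0.26), *EPFL2* in MUTEv5#5 over MUTE (-0.30 to 0.20), and *EPFL5* (-0.23 to 0.022), *EPFL6* (-0.20 to 0.012) and *EPFL7* (-0.26 to 0.13) in MUTEPPP#3 over MUTE. The same held for *EPFL9* in MUTEPPP#3 over MUTEv5#2 (-0.31 to 0.13) and, in MUTEPPP#3 over MUTEv5#5, for *EPF1* (-0.079 to 0.33), *EPFL1* (-0.012 to 0.18), *EPFL4* (-0.27 to 0.057) and *EPFL6* (-0.0076 to 0.34). The cause was not tested.

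The number of genes called in MUTEv5#2 over MUTE was 1140, against 2648 with DESeq2, 171 with the compared groups alone, 80 with the organelle share, 2456 with the clock index and 78 to 1399 without single libraries. In MUTEv5#5 over MUTE it was 235, against 1176, 42, 57 and 646 in the same order, 129 under library totals, and 59 to 274. In MUTEPPP#3 over MUTE it was 5577, against 3231 with the compared groups alone, 2806 with the clock index and 2995 to 5666. In MUTEv5#5 over MUTEv5#2 it was 15, against 300 with DESeq2 and 3 to 35. In MUTEPPP#3 over MUTEv5#2 it was 558, against 2124 with DESeq2, 129 with the compared groups alone, 56 with the organelle share, 121 with the clock index and 40 to 1904. In MUTEPPP#3 over MUTEv5#5 it was 3553, against 1894 with the compared groups alone, 739 with the clock index and 1061 to 4423. Under library totals the split of higher and lower calls became 1001 and 400 in MUTEv5#2 (otherwise 336 and 804), 63 and 66 in MUTEv5#5 (71 and 164), 4789 and 1862 in MUTEPPP#3 over MUTE (2428 and 3149) and 2004 and 1445 over MUTEv5#5 (1430 and 2123).

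The lines share replicate numbers 1 to 3. Deviations of same-numbered libraries correlated at -0.166 to 0.574 (median 0.0482, 8 of 18 pairs over 0.1), against -0.418 to 0.263 (median -0.0564, 10 of 36 over 0.1) for other numbers. All 3 pairs of MUTEv5#5 and MUTE were over 0.1, and in the other 5 pairs of lines at least 1 was not. MUTEv5#2 and MUTE gave 0.298, 0.0439 and 0.484 for numbers 1, 2 and 3. A cut-off of 0.1 cannot settle which lines the numbers pair, since libraries of other numbers passed it too. The main fit held no block, and no call of the family in MUTEv5#5 over MUTE changed under the block. With a replicate block, 1245, 217 and 6162 genes were called in MUTEv5#2, MUTEv5#5 and MUTEPPP#3 over MUTE, 15 between the MUTEv5 lines, and 810 and 4030 in MUTEPPP#3 over MUTEv5#2 and MUTEv5#5. Among members the block ended the *EPF2* call in MUTEPPP#3 over MUTE (0.78, adjusted p = 0.0508) and added that of *EPF1* (0.76, adjusted p = 0.0367). It also added that of *EPFL7* in MUTEPPP#3 over MUTEv5#2 (-1.15, adjusted p = 0.0395) and changed no other call of the family. Of the pathway calls over MUTE, those of *MUTE* (1.81) and *SCRM* (0.61) in MUTEv5#5 were lost with the compared groups alone, and those of *SDD1* (-1.11), *MUTE* (1.05), *FAMA* (-0.73) and *SCRM* (0.35) in MUTEv5#2 with the organelle share as a covariate. Depth limits *EPFL4*, at 24 to 72 counts per library, most.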
